A study of Mus musculus with 12 samples.

Results

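Reactivated nuclei were set against Early nuclei, which compares the state of hippocampal nuclei around memory recall with their state in the first hours after learning. The comparison took the 3 libraries titled Reactivated and the 3 titled Early, 6 of the 12 libraries of the series, and all genes that reached 10 counts in 3 or more of the 12. These were 15668 of the 24015 rows of the count table. All mice of both groups carried the ArcCreERT2 driver and the R26R-STOP-floxed-eYFP reporter, in which nuclei that express Arc while tamoxifen is present keep a yellow fluorescent label. All of them received 4-hydroxytamoxifen 1 h before fear conditioning and stayed in darkness for 24 h before it. The labels of all 12 libraries also give 48 h of darkness after it, which mice killed sooner cannot have completed. Time in darkness after conditioning therefore differed with the time of collection, and its part in the comparison was not tested. By the protocol, mice were killed either 1.5 to 2 h after conditioning, or on day 5, when some were first exposed again to the tone and context. That Early belongs to the first collection and Reactivated to the re-exposed mice is read from the titles, because the treatment field is the same for all 12 libraries. Each library was made from 10000 nuclei of a pool of 10 to 12 mice, after light fixation with 1% paraformaldehyde and a sort on staining for NeuN, Arc and GFP. The labels do not tie a sorting gate to a title, and whether Early and Reactivated nuclei were sorted through the same gate was not tested. Since Arc drives the label and an Arc antibody was used in sorting, the level of Arc RNA is not independent of the sort.

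Memory is thought to be held in sparse groups of neurons, called engrams, that are active during learning and active again during recall. Neuronal activity induces immediate early genes within minutes. Some encode transcription factors of the AP-1 (Fos and Jun) and Egr families, and others, such as Arc, act at synapses. These factors in turn drive slower genes for synaptic, secreted and cytoskeletal proteins. Nuclear RNA is rich in unspliced and nuclear-retained transcripts, so levels here describe the RNA of sorted nuclei and not that of whole neurons. Whether RNA of the cytoplasm was carried along with the nuclei was not tested.

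Of the 15668 genes tested, 2121 (13.5%) were higher and 1988 (12.7%) were lower in Reactivated than in Early, at an adjusted p under 0.05 in the quasi-likelihood test of edgeR. The change was at least 2-fold in 859 of the higher and 923 of the lower genes, and the median log2 fold change over all genes tested was 0.03. The 3 Reactivated and 3 Early libraries did not overlap in 6130 genes (39.1%), among them 3868 of those called. Total counts ranged from 6378949 to 9653364 in Early and from 7356465 to 10327059 in Reactivated. Rn45s, the precursor of ribosomal RNA, took 6.23%, 6.36% and 12.9% of the counts of the Early libraries and 27.7%, 18.8% and 20.7% of those of the Reactivated libraries. This share separated the groups, and with the share as a covariate no gene passed in either direction (smallest adjusted p 0.084, and 1792 genes at an unadjusted p under 0.05). The share and the group cannot be told apart in these libraries. With the share centred within each group, so that it carries only differences among replicates, 2722 genes were higher and 2467 lower. This setting cannot take up the difference of the share between the groups, so it does not bear on that confounding. Early 3 had the highest share of its group and lay nearest to the Reactivated libraries on the first principal component. Without it 2395 genes were higher and 2203 lower, whereas 860 and 933 were called without Early 1 and 783 and 915 without Early 2. Scaling set the balance of the calls. With library totals alone, the median of all genes moved by -0.40 and 719 genes were higher and 4284 lower. With upper quartile scaling it moved by -0.10 (1659 and 2502), and with the values used as deposited by -0.27 (343 and 1241). Changes of lists are therefore read against the median of all genes. Counts of list members in fits without 1 library are likewise read against the counts of all genes in those fits. The latter were 1623 higher and 1659 lower without Reactivated 1, 1701 and 1640 without Reactivated 2, and 2099 and 1956 without Reactivated 3. Below, a gene "rose" or "fell" when it passed the test, values are normalized counts in the order of replicates 1, 2 and 3, and errors of log2 fold changes are standard errors. The GC correction is a further fit in which each library was corrected for the GC content of transcripts, chosen like the centred share after seeing the data. Statements that a call ended or held cover this fit and the fits without 1 library, unless another setting is named. Some of these calls also ended in settings that are not named with them. Of the genes named by rule that passed, only Spry2, Fibcd1, Rgs14 and Neurod1 had overlapping groups.

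More immediate early transcription factors rose than genes at large. Of 22 tested, 8 rose and 0 fell (36.4%, beside 13.5% of all genes), with a median log2 fold change of 0.42. Those that rose were Egr4, Jund, Ier5, Fosl2, Junb, Jun, Fosb and Egr1, so that 5 of them are subunits of AP-1. Jun stood at 193, 166 and 209 in the Early and at 409, 371 and 306 in the Reactivated libraries. It was 1.91-fold higher in Reactivated (log2 fold change 0.93 ± 0.16, adjusted p = 0.00163), and its mean of 158 ± 15.5 in Late was below that of Early, while Basal stood at 326 ± 28.7. Jund, another AP-1 subunit, gave 169, 169.7 and 284 in Early and 581, 617 and 488 in Reactivated, a 2.70-fold difference (log2 fold change 1.44 ± 0.25, adjusted p = 0.0019). Fosl2 rose 2.31-fold, from 193, 173 and 177 to 299, 532 and 421 (log2 fold change 1.21 ± 0.21, adjusted p = 0.00185). The groups did not overlap for any of these 3 genes. Egr4, a zinc finger factor induced by activity, was low throughout, with 33.4, 28.3 and 29.2 in Early and 77.1, 79.2 and 93.2 in Reactivated (2.75-fold, log2 fold change 1.46 ± 0.29, adjusted p = 0.00348). Junb rose from 105 ± 30.0 to 212 ± 36.8 (mean ± SD, n = 3 each), Fosb from 36.6 ± 6.60 to 64.4 ± 3.91, and Ier5, an early gene linked to the heat shock response, from 123 ± 22.5 to 290.1 ± 96.5, with adjusted p-values of 0.00871, 0.0238 and 0.00463. The number of the list that rose was 5 to 8 when 1 library was left out, with the fewest without Early 2. Egr1, the best known factor of the Egr family, rose 1.49-fold, from 262, 219 and 179.6 to 278, 383 and 319 (log2 fold change 0.57 ± 0.18, adjusted p = 0.0322). The call on Egr4 ended with the GC correction (adjusted p = 0.0864) and that on Egr1 ended without Early 2, Early 3, Reactivated 2 or Reactivated 3 or with the GC correction (adjusted p 0.0506 to 0.235). That on Egr1 also ended with upper quartile scaling (adjusted p = 0.0828) and with the Reactivated and Early libraries alone (adjusted p = 0.0707). With this correction 4 of the 22 were higher, among them Jun, Jund and Fosl2, so Junb, Fosb and Ier5 did not all keep their calls. The median GC content of the list was 55.9%. In the bin of highest GC content (55.1% to 82.2%), 24.2% of all genes rose.

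Other early genes used to mark active neurons, Fos, Npas4, Nr4a1 and Arc, did not pass the test. Fos was at 17.7, 18.6 and 15.9 in Early and 15.1, 51.9 and 24.9 in Reactivated, and only Reactivated 2 and 3 exceeded every Early library (log2 fold change 0.83 ± 0.45, adjusted p = 0.182). Npas4, a factor induced by calcium influx, was at 144, 178 and 133 and 151, 195 and 174, with overlapping groups (log2 fold change 0.20 ± 0.18, adjusted p = 0.445). Nr4a1, an orphan nuclear receptor, gave 387, 357 and 347 and 334, 431 and 575, a log2 fold change of 0.30 ± 0.18 (adjusted p = 0.224). Arc, which encodes a synaptic protein and drives the reporter, was at 554, 337 and 415 in Early and 499.8, 713 and 766 in Reactivated. Reactivated 1 was below Early 1, and the difference missed the threshold (log2 fold change 0.61 ± 0.22, adjusted p = 0.0552). Means of Arc were 145 ± 40.6 in Basal and 593 ± 48.0 in Late, so every Basal library was below every library of the 3 other groups.

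**Figure D1:**
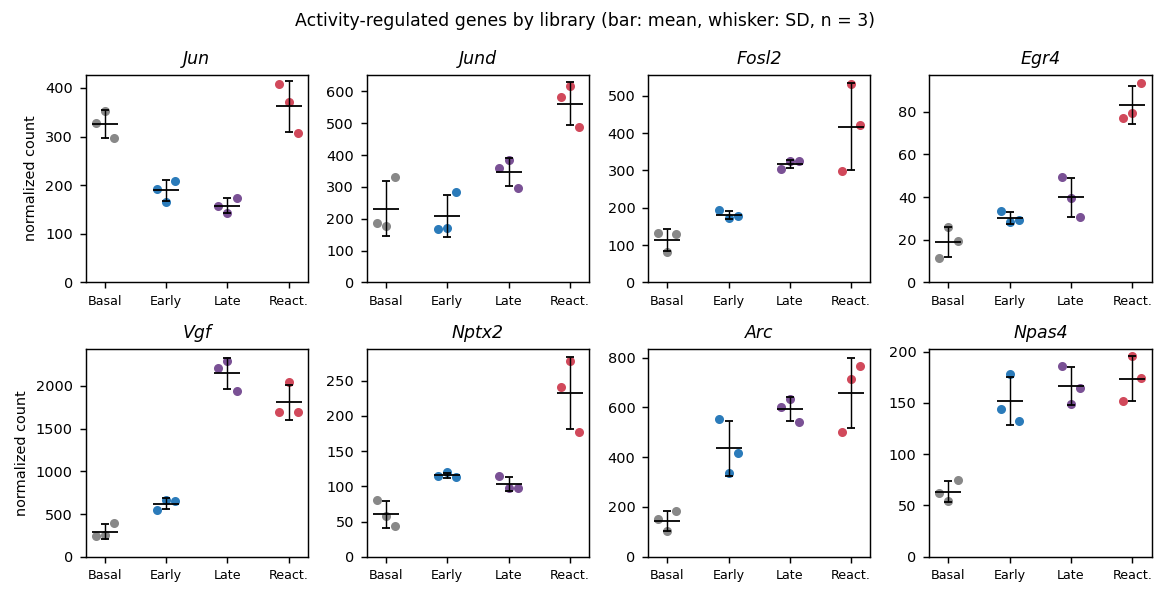
Normalized counts (vertical axes, linear from 0) of 8 activity-regulated genes in the 3 libraries of each group, with mean and SD. Jun, Jund, Fosl2, Egr4, Vgf and Nptx2 are higher in every Reactivated than in every Early library, while the groups overlap for Arc and Npas4.

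The list of slower activity-induced genes was so short that 1 or 2 genes set its shares, which lay near those of all genes. Of 23 effectors, 2 rose and 2 fell (8.70% each, beside 13.5% and 12.7% of all genes), with a median of 0.09 (1 fell without Early 1, Early 2 or Reactivated 1, and 4 rose without the last). With DESeq2 or limma-voom 3 rose. Vgf, the precursor of secreted peptides that is induced by neurotrophins and activity, was at 552, 662 and 655 in Early and 1693, 2048 and 1690 in Reactivated. It was 2.90-fold higher in Reactivated (log2 fold change 1.54 ± 0.18, adjusted p = 0.000477), with a mean of 2149 ± 179.8 in Late. Nptx2, a secreted pentraxin that gathers AMPA receptors at synapses, rose 2.00-fold, from 115, 120.0 and 113 to 241, 278 and 178 (log2 fold change 1.00 ± 0.22, adjusted p = 0.00575), and stood at 104 ± 10.0 in Late. Ptgs2, the inducible cyclooxygenase, went the other way, from 142, 152 and 179 to 41.3, 57.2 and 71.9, 2.74-fold lower (log2 fold change -1.45 ± 0.25, adjusted p = 0.00196). Its Early mean was also above that of Basal (61.3 ± 15.7) and Late (67.8 ± 15.8). Rasgrf1, a calcium-dependent activator of Ras, fell 1.32-fold from 3931 ± 251 to 2967 ± 54.4 (log2 fold change -0.41 ± 0.12, adjusted p = 0.0232). Bdnf, the neurotrophin, was at 322, 247 and 324 in Early and 307, 523 and 248 in Reactivated, where Reactivated 2 alone was high (adjusted p = 0.438). Homer1, a scaffold with an activity-induced short form that gene counts do not separate, had a log2 fold change of -0.02 ± 0.16 (adjusted p = 0.948). Of 13 inhibitors of the ERK pathway, 2 rose (15.4%, near the share of all genes) and 0 fell, with a median of -0.24, and 0 rose without Early 1, Early 2 or Reactivated 2. Dusp6, the phosphatase of ERK, was at 91.9, 73.1 and 74.3 in Early and 131, 175 and 158 in Reactivated (1.95-fold, log2 fold change 0.96 ± 0.28, adjusted p = 0.0236). Spry2, a receptor-level inhibitor, reached 450.2, 1517 and 415 in Reactivated beside 250.5, 244 and 418 in Early (log2 fold change 1.39 ± 0.46, adjusted p = 0.0375), so that Reactivated 2 alone stood apart and Reactivated 3 lay within the Early range. The call on Nptx2 ended with the GC correction (adjusted p = 0.0746) and that on Rasgrf1 ended without Early 1, Early 2 or Reactivated 1 (adjusted p 0.0541 to 0.0861). The call on Spry2 ended without Early 1, Early 2 or Reactivated 2 (adjusted p 0.128 to 0.312) and that on Dusp6 ended without Early 1, Early 2, Early 3 or Reactivated 2 (adjusted p 0.0523 to 0.0932). That on Spry2 also ended with DESeq2, limma-voom, the replicate block, or the Reactivated and Early libraries alone (adjusted p 0.059 to 0.071).

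Among the genes of smallest p was Bc1, a short noncoding RNA made by RNA polymerase III that is carried into dendrites and represses translation there. Its sequence is shown because the whole gene is this one short transcript. It lies on chromosome 7 (GRCm38, chr7:144914470-144914637, plus strand, 168 bases, sequence of GENCODE M21).
Bc1: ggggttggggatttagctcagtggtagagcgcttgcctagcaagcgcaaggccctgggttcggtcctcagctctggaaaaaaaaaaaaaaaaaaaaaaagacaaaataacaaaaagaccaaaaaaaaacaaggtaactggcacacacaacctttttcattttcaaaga
The internal adenosine-rich stretch follows a part derived from alanine tRNA. Bc1 was at 1302, 1042 and 1467 in the Early and 6049, 6058 and 4034 in the Reactivated libraries, with a wide gap between the groups. It was 4.24-fold higher in Reactivated (log2 fold change 2.08 ± 0.21, adjusted p = 0.000194) and passed in each fit that left out 1 library. Its means were 587 ± 110.0 in Basal and 196 ± 40.6 in Late, so that Late was the lowest and Reactivated the highest of the 4 groups.

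Small nucleolar RNAs rose in large number, and none fell. They guide the chemical modification of ribosomal and spliceosomal RNA, and most are cut out of introns of host genes. Of 97 tested genes with snoRNA or scaRNA symbols, 57 rose and 0 fell (58.8%), with a median log2 fold change of 1.60, and those that rose did so by 0.95 to 3.35. The members below were chosen after their values were seen, one of each box type, with the conserved boxes found by a script in capitals. For Snora35 these are an H box (ANANNA) near the middle and an ACA box 3 bases from the end, and for Snord23 a C box (TGATGA) and a D box (CTGA). Both sequences are from GENCODE M21, Snora35 at chrX:146994381-146994508 on the plus strand and Snord23 at chr7:15938762-15938870 on the minus strand of GRCm38.
Snora35: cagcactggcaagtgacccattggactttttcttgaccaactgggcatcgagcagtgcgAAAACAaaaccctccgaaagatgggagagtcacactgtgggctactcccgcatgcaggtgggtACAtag
Snord23: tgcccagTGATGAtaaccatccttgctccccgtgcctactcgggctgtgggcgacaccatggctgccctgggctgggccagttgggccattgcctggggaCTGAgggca
Snora35, a snoRNA found mainly in brain, was at 197, 186 and 163 in Early and at 3202, 552 and 1485 in Reactivated, 9.56-fold higher (log2 fold change 3.26 ± 0.44, adjusted p = 0.00068). In Late it was at 117, 126 and 135, below every Early library. It lies inside Htr2c, the gene of a serotonin receptor, and that host gene was at 72.5 ± 21.1 in Early and 99.9 ± 31.2 in Reactivated (log2 fold change 0.46 ± 0.28, adjusted p = 0.233). Snord23 was at 26.1, 31.1 and 84.4 in Early and 907, 180.4 and 374 in Reactivated, 10.2-fold higher (3.35 ± 0.53, adjusted p = 0.00128). Its host, listed in the table as Gltscr2, an older symbol of Nop53, rose less (1.10 ± 0.22, adjusted p = 0.00385). Unlike Snora35, Snord23 was as high in Late (356, 425 and 646) as in Reactivated. A same-strand host gene that was also tested was found for 88 of the 97. The log2 fold change of the small RNA exceeded that of its host in 85 of these 88. The 88 small RNAs had a median of 1.58, and their 67 distinct hosts, of which 15 rose and 4 fell, had a median of 0.05.

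**Figure D2:**
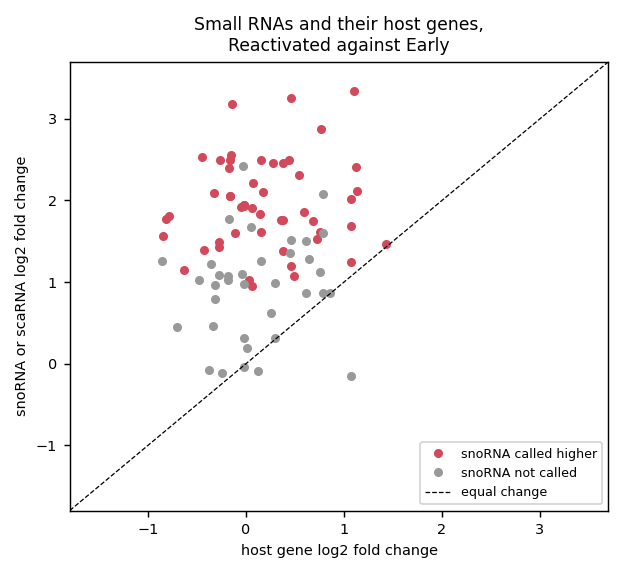
Log2 fold change of each of 88 snoRNAs and scaRNAs (vertical axis) against that of the host gene that contains it (horizontal axis), Reactivated against Early. Red points are small RNAs that passed the test, and 85 of the 88 points lie above the dashed line of equal change.

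Within the class, summed normalized counts were 22700, 26570 and 52370 in Early and 142700, 58210 and 102900 in Reactivated, so Reactivated 1 was highest and Early 3 lay close to Reactivated 2. They were 133100, 140000 and 170600 in Late. The number that rose was 32 without Early 1, 34 without Early 2, 66 without Early 3 and 40 without Reactivated 1. Among 161 genes with microRNA symbols, 20 rose and 14 fell (12.4% and 8.70%), near or below the shares of all genes (13.5% and 12.7%). Without Early 1 or without Early 2, 5 rose and 6 fell, and 33 rose without Early 3. One gene of this class, Mir6236, chosen after its values were seen, was at 4954, 1688 and 8202 in Early and at 55060, 29200 and 34870 in Reactivated, where the class summed to 60220, 33830 and 39820 (3.00 ± 0.62, adjusted p = 0.00447). It was at 519, 503 and 682 in Late. Other structural RNAs moved the same way as the snoRNAs, with 6 of 8 higher and a median of 1.93. Rnu11, a small nuclear RNA of the minor spliceosome, was at 672, 1035 and 1249 in Early and 8457, 1829 and 3955 in Reactivated (log2 fold change 2.27 ± 0.41, adjusted p = 0.00228). Rmrp and Rpph1, the RNA parts of the processing enzymes RNase MRP and RNase P, rose 3.57-fold and 4.05-fold (log2 fold change 1.84 ± 0.38, adjusted p = 0.00466 and log2 fold change 2.02 ± 0.43, adjusted p = 0.00496). Vaultrc5, a vault RNA, went from 16.7, 13.1 and 19.2 to 157, 46.6 and 88.8 (log2 fold change 2.56 ± 0.42, adjusted p = 0.00152). Lars2, named for a mitochondrial leucyl-tRNA synthetase, took 0.437%, 0.182% and 1.19% of the counts in Early and 4.61%, 3.54% and 4.08% in Reactivated, but 0.309%, 0.581% and 0.922% in Late. It was placed on this list because reads of ribosomal RNA are known to be assigned to it, and whether they are so here was not tested. The Rn45s share differed between Early and Reactivated as well, and its part in these rises was not tested. In Late, where the Rn45s share was 35.7%, 36.5% and 27.9%, Rmrp (10500 ± 813) and Rpph1 (35260 ± 16390) were high, whereas Lars2, Rnu11 (506 ± 78.2) and Mir6236 were not above the range of the Early libraries. Of 18 histone genes of the replication-dependent class, 8 rose and 0 fell (median 1.18). Of these 18, 2 rose without Early 1 or Early 2, and 4 without Reactivated 1 or with the GC correction, and the median was 0.71 without Reactivated 2. Hist1h1e, a linker histone chosen after its values were seen, was at 47.0, 42.8 and 55.1 in Early and 304, 181 and 204 in Reactivated (2.24 ± 0.25, adjusted p = 0.00036). Hist1h2af, likewise chosen after its values were seen, set the sum of the class in Reactivated 2 (611, 3971 and 678 in Reactivated, 290.2, 383 and 678 in Early). The call on Rn45s ended without Early 1 or Early 2 (adjusted p 0.0544 to 0.0559).

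Many genes of the protein synthesis machinery rose. Of 75 cytosolic ribosomal proteins, 37 rose and 2 fell (49.3% and 2.67%), with a median of 0.59. Rps15 was at 121, 132 and 169.5 in Early and 480.5, 482 and 291 in Reactivated (2.95-fold, log2 fold change 1.56 ± 0.20, adjusted p = 0.000623). Rplp1, of the ribosomal stalk, rose 2.84-fold, from 139.9, 112 and 178 to 539.7, 358 and 326 (log2 fold change 1.50 ± 0.22, adjusted p = 0.000905). Rpl36 and Rpl4 rose 2.53-fold and 1.82-fold, and the members that fell were Rpl15 and Rps15a (log2 fold change -0.88 each). Summed over the list, normalized counts were 12370 ± 833 in Early and 18790 ± 2941 in Reactivated, beside 12440 ± 314 in Late and 12050 ± 627 in Basal, so the Reactivated mean was the highest of the 4 groups. The number that rose was 21 without Early 2, 25 to 39 in the other fits that left out 1 library, and 33 after a correction for GC content. Ribosomal proteins have many processed pseudogenes, and how reads shared with these were counted is not given in the sources used here. Of 46 initiation and elongation factors, 12 rose and 2 fell (26.1% and 4.35%, median 0.25), with 7 higher without Early 1, 5 without Early 2, 17 without Early 3, and 8 without Reactivated 1 or Reactivated 2. Eif3a, the largest subunit of initiation factor 3, was at 1263, 1208 and 1874 and 2963, 2841 and 2782 (log2 fold change 0.98 ± 0.20, adjusted p = 0.00398). Eef1g, a subunit of elongation factor 1, rose 1.76-fold and Eif5b, which joins the ribosomal subunits, 1.71-fold. Eif4e, the cap-binding protein, was among those that fell (-0.68), but 0 of these factors fell without Early 1 or Early 2 or with the GC correction. Of 34 RNA-binding regulators of local translation, 5 rose and 4 fell (median 0.05), against 2 and 2 without Early 1 and 0 and 2 without Early 2. Cpeb1, which controls polyadenylation in dendrites, fell from 654, 667 and 763 to 414, 447 and 509 (log2 fold change -0.60 ± 0.16, adjusted p = 0.0156). Fmr1, the gene of fragile X syndrome, was at 358 ± 12.3 and 322 ± 50.2 (adjusted p = 0.448). The calls on Rps15, Rplp1, Rpl36, Rpl4, Eif3a, Eef1g, Eif5b and Cpeb1 held with the GC correction and in each fit that left out 1 library. With values as deposited, those on Rpl36, Rpl4, Eif3a, Eef1g, Eif5b and Cpeb1 ended (adjusted p 0.0573 to 0.432).

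Many genes of the neuronal cytoskeleton and of transport along it rose. Of 30 kinesins, dyneins and tubulins, 16 rose and 1 fell (53.3% and 3.33%), with a median of 0.49. Map1a, a microtubule-associated protein of mature neurons, was at 4852, 4515 and 7238 in Early and 11440, 12020 and 9296 in Reactivated (log2 fold change 0.98 ± 0.20, adjusted p = 0.00382). Kif3a, a motor of vesicle transport, rose from 1501, 1449 and 2050 to 2993, 3221 and 2682 (1.78-fold, log2 fold change 0.83 ± 0.17, adjusted p = 0.00417), and Kif5c, a neuronal heavy chain of kinesin 1, was 1.75-fold higher (log2 fold change 0.81 ± 0.18, adjusted p = 0.00598). Kif2a, a microtubule depolymerase, was the member that fell (-0.57). Without Early 1, Early 2 or Reactivated 3, with the GC correction, or with the Reactivated and Early libraries alone, 0 members fell. In this list Early 3 was the Early library nearest to Reactivated, and summed counts were 59750, 56380 and 78740 in Early and 97570, 103100 and 96170 in Reactivated. The number of members that rose was 6 without Early 1, 5 without Early 2, 10 without Reactivated 2 and 10 with the GC correction. Over all genes, 860, 783, 1701 and 1702 rose in the same fits, beside 2121 in the fit reported. Of 43 genes of axon growth and guidance, 10 rose and 5 fell (23.3% and 11.6%), with a median of 0.10. Without Early 2 these counts were 6 and 3. Basp1, a membrane protein of growth cones, was at 801, 660.3 and 1555 in Early and 5178, 5387 and 4415 in Reactivated, 4.97-fold higher (log2 fold change 2.31 ± 0.30, adjusted p = 0.000553). Gap43, its partner in axon growth, rose from 126, 103 and 138 to 383, 313 and 381 (2.94-fold, log2 fold change 1.55 ± 0.26, adjusted p = 0.00167). Stmn1 and Stmn3, which destabilise microtubules, rose 2.87-fold and 2.78-fold (log2 fold change 1.52 ± 0.24, adjusted p = 0.00124 and log2 fold change 1.48 ± 0.15, adjusted p = 0.000194), and in Stmn3 the 3 Reactivated libraries lay between 1480 and 1521. The Eph receptors Epha3, Epha4 and Epha7 fell (-0.86, -0.64 and -0.94), as did the guidance receptors Nrp2 and Robo2 (-0.53 and -0.43). Nefl and Nefm, the light and medium neurofilaments, rose 3.10-fold and 2.89-fold (log2 fold change 1.63 ± 0.26, adjusted p = 0.00125 and log2 fold change 1.53 ± 0.29, adjusted p = 0.00285). Nefl was at 739, 532 and 1204 in Early and 2504, 2744 and 2414 in Reactivated. The calls on Map1a, Kif3a, Kif5c, Basp1, Gap43, Stmn1, Stmn3, Nefl and Nefm held with the GC correction and in each fit that left out 1 library. With values as deposited, those on Map1a, Kif3a and Kif5c ended (adjusted p 0.261 to 0.398).

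At the presynaptic side, 10 of 27 genes of vesicle release rose and 0 fell (37.0%), with a median of 0.31. Cplx1, a complexin that clamps and triggers fusion, was at 428, 382 and 637 in Early and 1027, 1403 and 1328 in Reactivated (2.60-fold, log2 fold change 1.38 ± 0.24, adjusted p = 0.00211). Cplx2 rose from 1753, 1534 and 2425 to 5504, 4065 and 3172 (log2 fold change 1.16 ± 0.23, adjusted p = 0.00348), and its Late mean of 8719 ± 2160 was higher still. Slc17a7, the vesicular glutamate transporter of most hippocampal pyramidal neurons, was at 2964, 2745 and 3268 and 4425, 5392 and 4951 (1.65-fold, log2 fold change 0.72 ± 0.14, adjusted p = 0.00359). Snap25, a protein of the vesicle fusion complex, was higher in each Reactivated than in each Early library, 4001 ± 444 against 5038 ± 512 in the mean, but did not pass (log2 fold change 0.33 ± 0.13, adjusted p = 0.078). With the GC correction 6 members were higher, and 4 were without Early 2, beside 7 to 10 without any other single library. Postsynaptic scaffolds and kinases showed 4 higher and 1 lower of 26 (15.4% and 3.85%, median 0.23), with 2 higher without Early 1 or Early 2 and 9 without Early 3. Nrgn, the calmodulin-binding protein neurogranin, was at 1418, 1236 and 1684 in Early and 3326, 4534 and 2998 in Reactivated (2.50-fold, log2 fold change 1.32 ± 0.17, adjusted p = 0.000552), and at 1712 ± 126 in Late. Dlgap3, a scaffold protein, rose 2.00-fold (log2 fold change 1.00 ± 0.21, adjusted p = 0.0049), while Dlg2, a membrane-associated guanylate kinase, fell 1.76-fold, from 2901, 2871 and 2335 to 1451, 1706 and 1450 (log2 fold change -0.81 ± 0.13, adjusted p = 0.00138). Camk2a and Dlg4, the kinase and the main scaffold of excitatory synapses, had log2 fold changes of 0.40 ± 0.15 and 0.32 ± 0.13 (adjusted p = 0.0605 and 0.0725). The call on Slc17a7 ended with the GC correction (adjusted p = 0.0579).

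Receptor and channel genes changed in both directions, in lists so short that 1 or 2 genes set the shares, beside 13.5% higher and 12.7% lower of all genes. Of 15 AMPA receptor genes, 2 rose and 3 fell (13.3% and 20.0%, median -0.13). Gria2, the subunit that makes AMPA receptors impermeable to calcium, was at 15250, 14490 and 13640 in Early and 6703, 8586 and 8268 in Reactivated, with a clear gap (1.84-fold lower, log2 fold change -0.88 ± 0.14, adjusted p = 0.00129). Shisa6, an auxiliary protein that holds the receptors at synapses, fell from 2028, 1745 and 1720 to 1315, 1257 and 939.6 (log2 fold change -0.65 ± 0.14, adjusted p = 0.00624). Gria1 was at 11280 ± 763 and 10320 ± 958 (adjusted p = 0.45). Of 20 NMDA, kainate and metabotropic receptor genes, 1 rose and 5 fell (5.00% and 25.0%, median 0.05), and 1 to 3 fell in the fits without Early 1, Early 2, Reactivated 1, Reactivated 2 or Reactivated 3. Grik2, a kainate subunit, fell from 1326, 1344 and 1016 to 603, 738 and 721 (1.78-fold, log2 fold change -0.84 ± 0.18, adjusted p = 0.0049), and Neto2, its auxiliary protein, fell 2.26-fold (log2 fold change -1.18 ± 0.28, adjusted p = 0.00902). Grin2a and Grin2b, which encode 2 of the NMDA receptor subunits of forebrain, fell 1.35-fold and 1.30-fold, both with small changes. Grin2c was the member that rose, but its Reactivated values of 326, 66.0 and 55.1 show that Reactivated 1 alone stood far from Early (33.4, 42.1 and 47.6). Of 12 GABA-A subunits, 0 rose and 2 fell (median -0.36), with 0 lower without Early 1 or with the GC correction and 4 lower without Early 3. Gabra2 was at 588, 487 and 518 in Early and 344, 356 and 355 in Reactivated (log2 fold change -0.59 ± 0.16, adjusted p = 0.0141). Among 31 potassium and HCN channel genes, 2 rose and 3 fell (6.45% and 9.68%), against 4 and 4 with DESeq2. Kcnip4, a partner of A-type channels, fell 2.41-fold (log2 fold change -1.27 ± 0.25, adjusted p = 0.00338), and Kcnq5, an M-current channel, fell from 774, 641 and 738 to 475, 474 and 488 (log2 fold change -0.58 ± 0.14, adjusted p = 0.00823). Kcnj9, a G protein-gated channel, rose 1.67-fold (log2 fold change 0.74 ± 0.12, adjusted p = 0.00151). Of 22 sodium and calcium channel genes, 4 rose and 1 fell (18.2% and 4.55%). These counts were 0 and 0 without Early 1, 1 and 0 without Early 2, and 2 and 1 without Reactivated 2. Cacna1g, a T-type channel, had the smallest p of those that rose (1.84-fold, log2 fold change 0.88 ± 0.22, adjusted p = 0.0109). Of 27 monoamine, acetylcholine and corticosteroid receptor genes, 1 rose and 4 fell (1 fell without Early 1). Adra2a, an inhibitory receptor for noradrenaline, rose from 51.1, 43.5 and 29.2 to 116, 110.0 and 89.7 (log2 fold change 1.35 ± 0.28, adjusted p = 0.00494), and Nr3c2, the mineralocorticoid receptor, fell from 1293, 1220 and 1129 to 664, 941 and 799 (log2 fold change -0.60 ± 0.14, adjusted p = 0.00979). The call on Kcnj9 ended with the GC correction (adjusted p = 0.0943) and those on Neto2, Gabra2 and Cacna1g ended without Early 1 or with the GC correction (adjusted p 0.0512 to 0.839). The call on Grin2c ended without Early 1, Early 2 or Reactivated 1 or with the GC correction (adjusted p 0.0782 to 0.204) and that on Grin2a ended without Early 1, Early 2, Reactivated 1 or Reactivated 2 (adjusted p 0.0525 to 0.106). That on Grin2c also ended with limma-voom (adjusted p = 0.106). The call on Grin2b ended without Early 1, Early 2, Reactivated 1, Reactivated 2 or Reactivated 3 or with the GC correction (adjusted p 0.0589 to 0.147). That on Grin2b also ended with no filter (adjusted p = 0.0633) and with the replicate block (adjusted p = 0.0556).

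Cell adhesion genes changed about as often as all genes, with 3 of 22 higher and 3 lower (13.6% each, beside 13.5% and 12.7%, median 0.03), of which the falls all ended without Early 1 or Early 2. Nrxn2, a presynaptic neurexin, was at 1650, 1788 and 2177 in Early and 4039, 3883 and 3343 in Reactivated (2.01-fold, log2 fold change 1.00 ± 0.17, adjusted p = 0.00175). Ncam1, a homophilic adhesion protein, rose 1.51-fold (log2 fold change 0.60 ± 0.14, adjusted p = 0.00744), whereas Il1rapl1 and Lrrtm4 fell (-1.06 and -0.71). Among secreted peptides, 2 of 20 rose and 1 fell (10.0% and 5.00%), in a list so short that 1 or 2 genes set the shares. The number that rose was 4 with DESeq2 or limma-voom or without Reactivated 3. It was 1 without Early 2 or Reactivated 2 or with the GC correction. Chga, the granule protein chromogranin A, rose from 661, 629.9 and 819 to 1177, 1412 and 1466 (1.92-fold, log2 fold change 0.94 ± 0.15, adjusted p = 0.00135). Pcsk1n, which encodes an inhibitor of a prohormone convertase, had one of the smallest p-values of all genes, with 373, 438 and 595 in Early and 1960, 1771 and 1523 in Reactivated (3.73-fold, log2 fold change 1.90 ± 0.17, adjusted p = 0.000158). Npy, a peptide of interneurons, fell from 117, 139 and 56.8 to 41.3, 55.4 and 40.9 (log2 fold change -1.18 ± 0.30, adjusted p = 0.012). In the cAMP pathway 4 of 29 rose and 1 fell (13.8% and 3.45%), a share of rises near that of all genes, but 0 rose and 0 fell without Early 1 or Early 2, and 1 or 2 rose without Reactivated 2 or 3. Adcy5, an adenylyl cyclase, rose 2.22-fold (log2 fold change 1.15 ± 0.28, adjusted p = 0.0106), whereas Creb1, the transcription factor at the end of the pathway, fell from 329.8, 291 and 257 to 158, 183 and 238 (log2 fold change -0.59 ± 0.20, adjusted p = 0.0382). The calls on Npy and Adcy5 ended without Early 1 or Early 2 (adjusted p 0.0543 to 0.0822) and that on Creb1 ended without Early 1, Early 2, Reactivated 1 or Reactivated 2 or with the GC correction (adjusted p 0.0959 to 0.195).

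Chaperone and housekeeping lists differed in size of change. Of 24 heat shock proteins and co-chaperones, 5 rose and 0 fell (20.8%, median 0.36), with 3 higher without Early 2. St13, a co-chaperone of Hsp70, was at 309, 272 and 301 in Early and 487, 484 and 475 in Reactivated (1.64-fold, log2 fold change 0.71 ± 0.12, adjusted p = 0.0019). Hsp90ab1, the constitutive cytosolic Hsp90, rose from 3578, 2598 and 4001 to 5466, 6402 and 5454 (1.70-fold, log2 fold change 0.77 ± 0.17, adjusted p = 0.00677). Hsf2, a heat shock factor, was called higher with Reactivated 2 far above the rest (1202, 5770 and 1076 in Reactivated, 524, 647 and 1004 in Early). Of 31 proteasome subunits, 6 rose and 3 fell (median 0.16), or 2 and 1 without Early 1 or Early 2, 4 and 1 without Reactivated 1, and 3 and 3 without Reactivated 2, with Psmd2 2.03-fold higher (log2 fold change 1.02 ± 0.18, adjusted p = 0.00207) and Psma3 1.84-fold lower (log2 fold change -0.88 ± 0.17, adjusted p = 0.0029). Of 50 respiratory chain and ATP synthase genes, 7 rose and 1 fell (median 0.14), a share of rises near that of all genes. The call on Hsf2 ended without Early 1, Early 2 or Reactivated 2 (adjusted p 0.0697 to 0.125).

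Chromatin and RNA-processing genes changed in both directions. Of 50 histone and DNA modifying enzymes, 10 rose and 5 fell (20.0% and 10.0%, median 0.23), with 3 higher without Early 1, 2 without Early 2 and 18 without Early 3. Mbd2, which binds methylated DNA, rose from 177, 147 and 228 to 369, 387 and 312 (1.93-fold, log2 fold change 0.95 ± 0.19, adjusted p = 0.004), and Dnmt1, the maintenance DNA methyltransferase, 1.77-fold (log2 fold change 0.82 ± 0.20, adjusted p = 0.00892). Kdm4c, a histone demethylase, fell from 497, 563 and 517 to 312, 348 and 347 (log2 fold change -0.64 ± 0.15, adjusted p = 0.00942). The class II deacetylases Hdac4, Hdac5 and Hdac7 were all higher (0.92, 0.82 and 0.57), while Hdac9 did not pass (log2 fold change 0.30 ± 0.18, adjusted p = 0.222). The calls on Hdac4, Hdac5 and Hdac7 all ended without Early 2, and no more than 1 of them held without Early 1. Of 32 genes of cohesin, CTCF and remodelling, 8 rose and 4 fell (25.0% and 12.5%, median 0.12), with 3 higher without Early 1 or Early 2 and 4 without Reactivated 1. Chd3 and Chd5, remodellers of the NuRD family, rose 1.87-fold and 2.29-fold (log2 fold change 0.90 ± 0.15, adjusted p = 0.00179 and log2 fold change 1.20 ± 0.28, adjusted p = 0.00767). Yy1, a factor that bridges enhancers and promoters, was at 146, 173 and 216 in Early and 463, 384 and 356 in Reactivated (2.24-fold, log2 fold change 1.16 ± 0.21, adjusted p = 0.00237). Nipbl and Mau2, which load cohesin onto DNA, both fell (-0.66 and -0.47). Splicing factors of the hnRNP and SR families gave 9 higher and 9 lower of 42 (21.4% each, beside 13.5% and 12.7% of all genes), against 4 or 5 in each direction without Early 1 or Early 2. Hnrnpa0 rose 3.37-fold (log2 fold change 1.75 ± 0.32, adjusted p = 0.00235), whereas Tardbp, which encodes TDP-43, fell from 1188, 1271 and 945 to 591, 569 and 674 (1.86-fold, log2 fold change -0.89 ± 0.16, adjusted p = 0.00204). Of 16 nuclear long noncoding RNAs, 3 rose and 6 fell (18.8% and 37.5%, median -0.31), and 2 fell without Early 1, Early 2 or Reactivated 1. Malat1, an abundant RNA of nuclear speckles, fell 1.60-fold (log2 fold change -0.68 ± 0.14, adjusted p = 0.00472), and Kcnq1ot1, the antisense RNA of an imprinted cluster, fell from 93100, 107300 and 98280 to 56550, 57870 and 64800 (log2 fold change -0.74 ± 0.12, adjusted p = 0.00153). Gas5, the host of many snoRNAs, rose 2.69-fold but was highest in Reactivated 1 (10960, 3999 and 5724 in Reactivated, 1788, 2494 and 3414 in Early). The calls on Kdm4c, Malat1 and Kcnq1ot1 ended with the GC correction (adjusted p 0.0933 to 0.279) and that on Mau2 ended without Early 1 (adjusted p = 0.0715). The call on Dnmt1 ended without Early 1 or Early 2 (adjusted p 0.051 to 0.0514) and that on Gas5 ended without Early 1, Early 2 or Reactivated 1 (adjusted p 0.0505 to 0.0604).

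**Figure D3:**
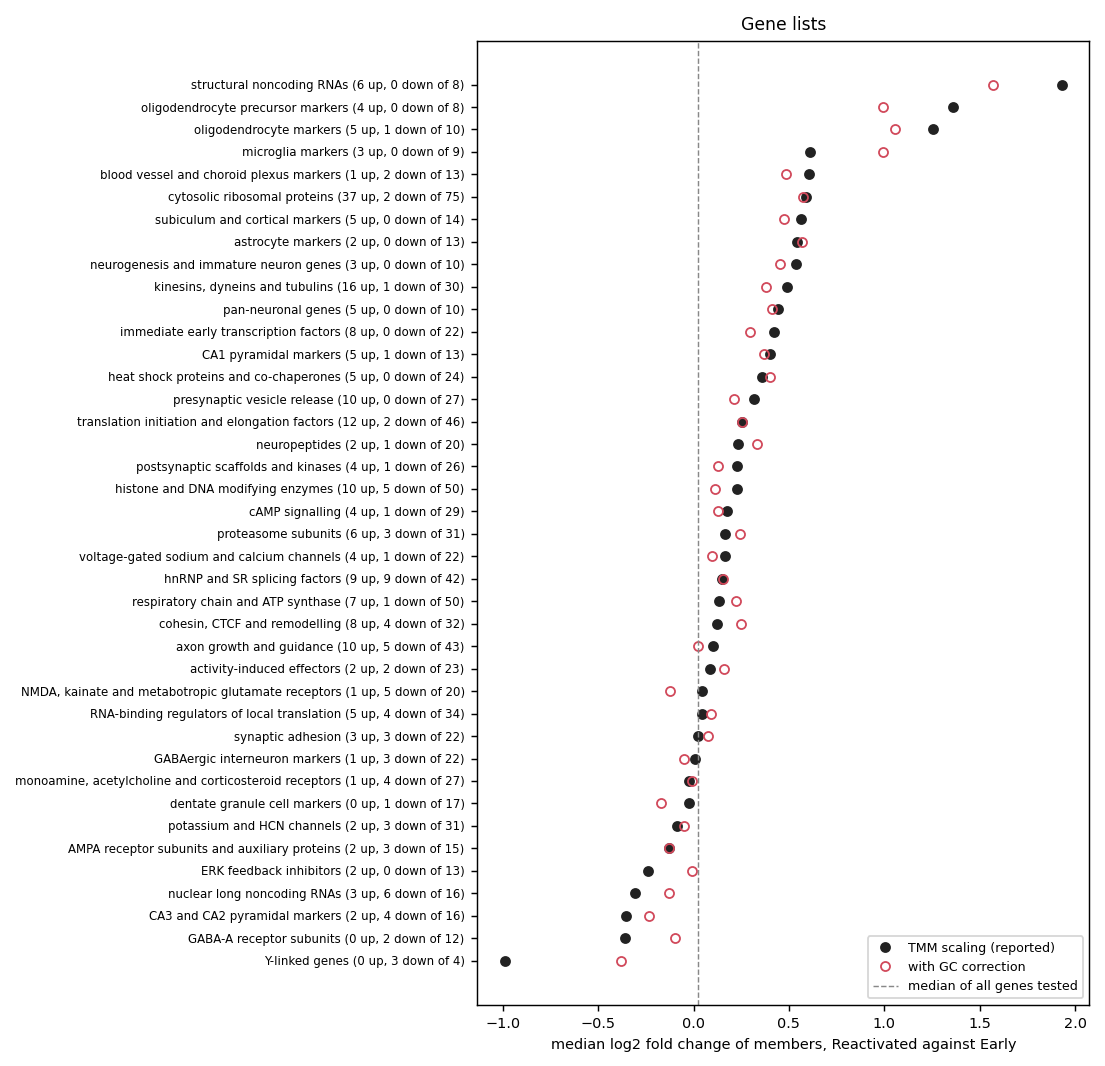
Median log2 fold change (horizontal axis) of the tested members of 40 gene lists, as reported (filled) and with a correction for GC content (open), with the number called in each direction beside each name. Structural RNAs, glial lists and ribosomal proteins lie to the right of the median of all genes (dashed), and Y-linked genes and GABA-A subunits to the left.

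Some gene families outside the lists had more falls than rises. Of 56 tested genes of the protocadherin clusters, which give neurons their surface identity, 0 rose and 13 fell (23.2%, beside 12.7% of all genes), with a median of -0.36. The number that fell was 5 without Early 1, 3 without Early 2, 7 without Reactivated 1 or Reactivated 2, and 9 with the GC correction. Summed counts of the class were 6416, 6947 and 7231 in Early and 4846, 5424 and 6075 in Reactivated, without overlap. Of 341 genes with zinc finger (Zfp) symbols, 23 rose and 86 fell (median -0.31). The number that fell was 44 without Early 1, 38 without Early 2 and 39 with the GC correction, and the number that rose was 4, 6 and 11, or 9 without Reactivated 1. Among 1401 unnamed gene models, 98 rose and 388 fell (median -0.45), against 33 and 223 without Early 1, 32 and 200 without Early 2, and 91 and 308 with the correction. The largest falls by rule were in genes of low level. Tmem45b, a membrane protein, was at 147, 111 and 58.5 in Early and 8.26, 0 and 13.3 in Reactivated (log2 fold change -3.87 ± 0.58, adjusted p = 0.000975). Rhag, known as a red cell membrane protein, fell from 112, 83.5 and 65.2 to 6.88, 15.0 and 16.9 (log2 fold change -2.68 ± 0.37, adjusted p = 0.000704). Slc6a18, a transporter best known from kidney, had higher levels and fell from 1953, 1879 and 943 to 361, 161 and 311 (5.76-fold, log2 fold change -2.53 ± 0.35, adjusted p = 0.000693). Cenpp, Klhl10, Slamf8, Zfp758, Lpar6, Gimap8, Mcts1, F8 and Slfn8 completed the 12 largest falls, with log2 fold changes of -2.29 to -3.04. Several of these genes are not known for a role in neurons, and where in these genes their reads lie was not tested. Neurl3, an E3 ubiquitin ligase, was at 432, 432 and 347 in Early and 92.2, 122 and 113 in Reactivated (3.68-fold, log2 fold change -1.88 ± 0.18, adjusted p = 0.000158). Car4, a membrane-bound carbonic anhydrase, fell 2.74-fold from 316, 268 and 293 to 96.4, 101 and 121 (log2 fold change -1.46 ± 0.17, adjusted p = 0.000483), and its Early mean exceeded those of Basal (168 ± 29.9) and Late (143 ± 12.8).

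The largest rises by rule mixed several kinds of gene. Tmem38b, an intracellular cation channel, was at 499, 489 and 1125 in Early and 12090, 3285 and 8215 in Reactivated (11.2-fold, log2 fold change 3.48 ± 0.47, adjusted p = 0.00068), with a Late mean of 16110 ± 4256. Adamts7, a secreted metalloprotease, Gcm1, a transcription factor of placenta, and Klk14, a secreted protease, rose 8.28-fold, 8.05-fold and 7.93-fold, and in all 3 Reactivated 1 was the highest library. Gcm1 for example was at 51.1, 73.1 and 159 and 1400, 549 and 358. Glrx5, a mitochondrial protein of iron-sulfur cluster assembly, rose evenly, from 23.0, 20.0 and 27.6 to 142, 119 and 112 (5.26-fold, log2 fold change 2.40 ± 0.25, adjusted p = 0.000286). Ccdc85c rose from 28.2, 19.3 and 35.9 to 168, 164 and 131 (log2 fold change 2.48 ± 0.34, adjusted p = 0.000698), and Col9a3, a collagen, from 109.6, 170.4 and 82.7 to 852, 492 and 646 (log2 fold change 2.44 ± 0.34, adjusted p = 0.000731). Flt1, Lars2, Sox10, Vaultrc5 and Lamc3 completed the 12. Tmsb10, an actin-binding thymosin, had one of the smallest p-values, at 125, 113 and 139 in Early and 560.3, 501 and 463 in Reactivated (4.04-fold, log2 fold change 2.01 ± 0.19, adjusted p = 0.000158). Rab5a, the GTPase of early endosomes, went from 106, 86.9 and 103 to 309.8, 306 and 249 (2.92-fold, log2 fold change 1.55 ± 0.16, adjusted p = 0.000286). The call on Lamc3 ended without Early 1 or Early 2 (adjusted p 0.0512 to 0.0543) and that on Flt1 ended without Early 1, Early 2, Early 3 or Reactivated 1 (adjusted p 0.0564 to 0.147). That on Flt1 also ended with limma-voom (adjusted p = 0.158).

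Markers of hippocampal subfields and other cells were read beside these lists. In bulk nuclei, fewer nuclei of a type and less RNA per nucleus cannot be told apart. Rbfox3, which encodes the NeuN antigen used in sorting, was at 1596, 1624 and 2033 in Early and 1808, 1923 and 1829 in Reactivated (adjusted p = 0.681). Of 10 pan-neuronal genes, 5 rose and 0 fell (median 0.44), and 4 rose without Early 1 or Early 2. Those that rose were Nefl, Nefm, Stmn2, Tubb3 and Eno2. Summed over the list, counts were 18430, 16510 and 17990 in Early and 22850, 26560 and 23980 in Reactivated, without overlap. Of 17 dentate granule cell markers, 0 rose and 1 fell (median -0.03), and their sum was 5735 ± 298 in Early and 5832 ± 2326 in Reactivated (8516 in Reactivated 1). Without Reactivated 1, 6 of the 17 fell. Prox1, the defining factor of granule cells, was at 265, 299 and 306 in Early but at 457, 180.4 and 119 in Reactivated, so Reactivated 1 stood above and the 2 other libraries below Early. It did not pass (log2 fold change -0.23 ± 0.33, adjusted p = 0.639), but did without Reactivated 1 (log2 fold change -0.96). Of 13 CA1 markers, 5 rose and 1 fell (38.5% and 7.69%, median 0.40), with 2 to 4 higher in the fits without 1 library and the fewest without Early 2. Nov, a secreted matrix protein, was at 358, 308 and 257 and 746, 866 and 765 (2.58-fold, log2 fold change 1.36 ± 0.17, adjusted p = 0.000552), whereas Wfs1, the most used CA1 marker, did not pass (log2 fold change 0.32 ± 0.18, adjusted p = 0.204). Of 16 CA3 and CA2 markers, 2 rose and 4 fell (median -0.35; 2 fell without Early 1), with Iyd 2.40-fold lower (log2 fold change -1.26 ± 0.30, adjusted p = 0.00851) and Pcp4 2.10-fold higher (log2 fold change 1.07 ± 0.20, adjusted p = 0.00307). Subiculum and cortical markers gave 5 higher and 0 lower of 14 (35.7%, median 0.57), or 3 without Early 1 or Early 2. Dlk1 rose from 27.1, 38.6 and 37.6 to 100.5, 108 and 104 (2.99-fold, log2 fold change 1.58 ± 0.24, adjusted p = 0.0011), and Foxp2 2.51-fold, while Rorb was highest in Reactivated 2 (2697, 7370 and 1638 in Reactivated, 657, 797 and 1383 in Early). The summed level of this list was 5057 ± 304 in Early and 10120 ± 3446 in Reactivated, and 17860 ± 5258 in Late. Interneuron markers gave 1 higher and 3 lower of 22 (1 lower without Early 1 or Early 2, 6 without Early 3), among them Gad2 and Dlx6os1 lower (1.55-fold and 2.63-fold) and Pvalb higher (2.44-fold), with Gad1 at 381 ± 125 and 383 ± 15.6 (adjusted p = 0.975). The call on Pvalb ended without Early 2 (adjusted p = 0.068) and that on Gad2 ended without Early 1, Early 2, Reactivated 2 or Reactivated 3 or with the GC correction (adjusted p 0.0564 to 0.17).

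Several glial markers rose, and of the 6 Early and Reactivated libraries, Reactivated 1 had the highest sum of each of 4 glial lists. Of 10 oligodendrocyte markers, 5 rose and 1 fell (median 1.25), and their sum was 2224, 1743 and 1706 in Early and 7806, 3524 and 2961 in Reactivated, beside 9989, 7930 and 4777 in Late. Without Reactivated 1 or Early 2, 3 oligodendrocyte markers rose. Precursor markers gave 4 of 8 higher, but 1 without Early 1, Early 2 or Reactivated 1, with sums of 117, 115 and 160.4 in Early and 604, 269 and 259 in Reactivated. Sox10 was at 16.7, 9.66 and 25.1 and 169, 64.2 and 78.2 (log2 fold change 2.59 ± 0.43, adjusted p = 0.00163). Of 9 microglia markers, 3 rose (33.3%) and 0 fell, and 1 rose without Early 1, Early 2 or Reactivated 1. Their sums were 781, 820.3 and 973 in Early and 2397, 1423 and 1067 in Reactivated, beside 10210, 8151 and 6005 in Late. Of 13 astrocyte markers, 2 rose (15.4%, near the share of all genes) and 0 fell (median 0.54). The astrocyte sums overlapped (4305 to 6700 in Early, 5338 to 12300 in Reactivated). Without Reactivated 1, 1 astrocyte marker rose and 1 fell, with a median of 0.12, and without Reactivated 2, 5 rose. For the oligodendrocyte, precursor, microglia, subiculum and pan-neuronal sums the groups did not overlap (exact two-sided permutation p = 0.1, the smallest that 3 against 3 libraries allow, and 0.2 adjusted over 14 such sums and shares). No defining glial marker was at 0 in all libraries of either group, and the part of glial RNA in the results above was not tested. Y-linked genes fell, with 3 of 4 lower and a median of -0.99, and 3 fell in each fit that left out 1 library as well. Kdm5d was at 665, 646 and 634 in Early and 271, 331 and 336 in Reactivated (2.07-fold, log2 fold change -1.05 ± 0.13, adjusted p = 0.000528), and it was at 768 ± 32.4 in Basal and 321 ± 21.8 in Late. Xist, the RNA of the inactive X chromosome, was at 147 ± 15.0 in Early and 317 ± 349 in Reactivated (adjusted p = 0.134). The sex of the pooled mice is not given in the sources used here, and its part in the comparison was not tested. The calls on Sox10 and Kdm5d held with the GC correction and in each fit that left out 1 library.

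**Figure D4:**
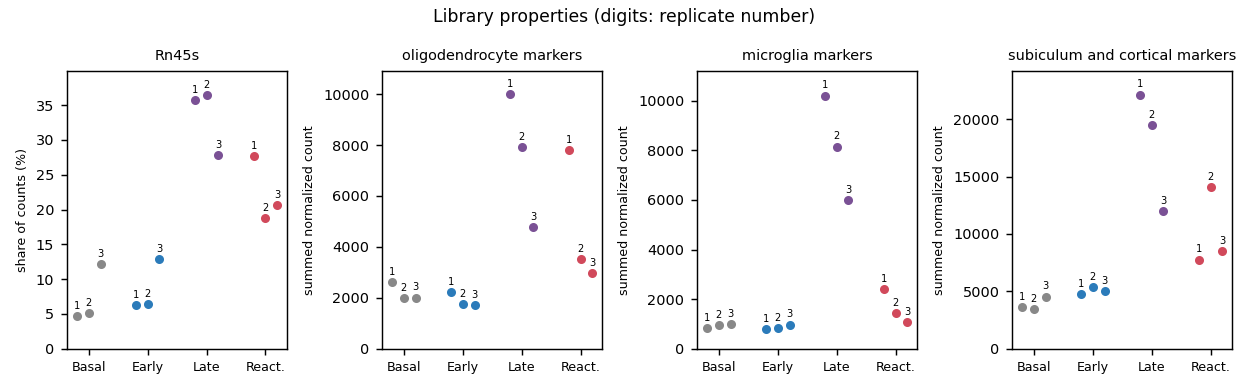
Share of counts in Rn45s (percent) and summed normalized counts of 3 marker lists in each library, with digits for the replicate. Every Reactivated library lies above every Early library in all 4 panels, and Late reaches the highest values of the 4 groups in each panel.

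Properties of the transcripts went with the direction of change. GC content was known for 15461 of the tested genes (98.7%), from GENCODE M21 transcripts. Genes were ranked by GC content and divided into 4 bins of equal size. In the lowest bin (25.0% to 46.1%), 6.60% of genes rose and 25.4% fell, with a median log2 fold change of -0.33. In the highest bin (55.1% to 82.2%), 24.2% rose and 3.18% fell, with a median of 0.37. Across these genes the Spearman correlation of GC content with the log2 fold change was 0.395, where genes share libraries and are not replicates. With a correction of each library for GC content, 1702 genes were higher and 1450 lower, and 62.2% of the calls reported here were kept. Transcript length went with direction less, with 15.4% higher in the shortest of 4 such bins and 12.8% in the longest. Of 709 genes whose transcripts all have 1 exon, 24.1% rose and 11.0% fell (median 0.37), beside 13.1% and 12.6% of 14752 genes with introns. Median GC content was 55.9% for immediate early factors, 52.0% for ribosomal proteins, 44.1% for GABA-A subunits and 37.7% for Y-linked genes, beside 50.5% for all genes. After the correction, 4 immediate early factors were higher and 0 lower (median 0.30), 0 GABA-A subunits were lower, 1 Y-linked gene was lower (median -0.38), and 33 ribosomal proteins were higher and 2 lower.

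**Figure D5:**
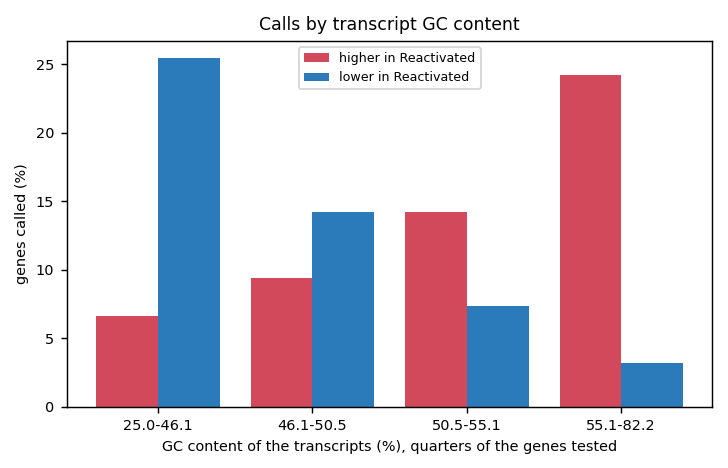
Share of genes called higher (red) or lower (blue) in Reactivated (vertical axis, percent) in 4 equal bins of the tested genes by GC content of their transcripts (horizontal axis, percent). Rises grow from 6.60% to 24.2% and falls shrink from 25.4% to 3.18% from the lowest to the highest bin.

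Promoters were searched for the sites of factors that act downstream of activity, in the 250 bases before the start of the gene in RefSeq promoters of GRCm38.p6, on both strands. The cAMP response element TGACGTCA was in 3.84% of 1510 promoters of genes that rose, 2.57% of 1442 of genes that fell and 2.85% of all 11441 matched. The AP-1 site, TGAGTCA or TGACTCA, was in 3.91%, 3.61% and 4.13%, and the Egr site GCGTGGGCG in 0.99%, 1.11% and 1.12%. The AP-1 and Egr sites were thus about as frequent among genes that rose as among all. Rab5a and Kif5c, described above, hold the response element, which is in capitals in the stretches printed here. The stretches lie at chr17:53479166-53479233 and chr2:49619220-49619285, both on the plus strand, and the element begins 28 and 26 bases before the start. They are shown because both genes rose and passed in each fit that left out 1 library.
Rab5a: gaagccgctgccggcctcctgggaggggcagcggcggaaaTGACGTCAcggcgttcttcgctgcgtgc
Kif5c: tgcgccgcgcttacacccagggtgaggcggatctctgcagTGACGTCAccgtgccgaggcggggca
A match is a match of letters and does not show binding.

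Late libraries, of the later collection without a title of re-exposure, were set beside these values. The comparisons share libraries, so only levels are given. Of the 2121 genes higher in Reactivated, the Late mean was at or beyond the Reactivated mean in 954, between Early and Reactivated in 944, and at or below Early in 223. Jun, Nptx2, Bc1 and Snora35 were among the 223. For Rab5a, Eif3a and Chd5 the Late mean was above the Reactivated mean, with 312 ± 43.0, 3156 ± 285 and 16690 ± 3354. Of the 1988 lower genes, the Late mean was at or beyond Reactivated in 833, between in 969 and at or above Early in 186. Car4 and Ptgs2 were among the 969, with Late means between the 2 groups. Egr1, Egr4 and Basp1 were at 147 ± 16.5, 39.9 ± 9.21 and 1741 ± 361 in Late.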

How the data were processed

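RNA of sorted mouse hippocampal nuclei was sequenced. The values used are whole counts per gene as the authors deposited them in 1 table, under the name normalized, although totals differ between libraries as raw counts do. Per the labels, libraries used a SMARTer stranded total RNA kit with 15 PCR cycles, while the design text names SmartSeq2. Per the submitters' processing notes, Bowtie2 2.0, Cufflinks 2.2, DESeq2 and mm9 were used. Which counter, annotation and strand were used is not given in the sources used here.

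Genes that reached 10 counts in 3 or more of 12 libraries were fitted with edgeR 4.0.16 in R 4.3.3 (TMM scaling, 4 group means, 8 residual degrees of freedom, glmQLFTest of Reactivated minus Early, Benjamini-Hochberg over 15668 genes, threshold 0.05). Standard errors are the log2 fold change divided by the square root of F. To normalize, each count was divided by its library's TMM-scaled size over the geometric mean of these sizes. Each replicate is a pool of mice, so p-values measure the spread between pools. The fit was tested on simulated data.

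The members and lists were chosen with earlier results of these data known. Genes were named by rule, as the 12 largest changes in each direction without overlap and with a mean of 50 or more on the higher side, up to 4 called members of each list by p, anchor members of lists, and the 5 smallest p-values in each direction, leaving out unnamed models and small RNA symbols. Others were chosen for a list's count or after their values were seen. The alternatives tried were DESeq2 1.42.0, limma-voom (limma 3.58.1), other scalings and filters, a replicate block, the Rn45s share as a covariate, fits without 1 library, and, chosen after seeing the data, the share centred within groups and a correction for GC content (a smooth curve of each library on transcript GC content). Symbols turned into dates (27) were kept in the fit and not named, and some genes that the rule names are not reported here. Early and Reactivated libraries of the same number did not deviate together (correlations of deviations -0.04, -0.04 and -0.11). Pairing with Basal or Late libraries was not tested. In Basal, Early and Late, library 3 stood apart from the others of its group in the Rn45s share (12.2%, 12.9% and 27.9%).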

Additional observations from a re-analysis of the deposited data

How the results depend on the processing

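The number of genes higher and lower stayed within 1.5 times of 2121 and 1988 with DESeq2, limma-voom, other filters, median-of-ratios and upper quartile scaling, structural RNAs left out, the replicate block (2099 and 1928) and both settings chosen after seeing the data. Of the last 2, the centred share cannot take up a difference of the share between groups. It moved further with library totals alone (719 and 4284), with values as deposited (343 and 1241) and with the share of Rn45s in the model (0 and 0). With the Reactivated and Early libraries alone, 1416 were higher and 1198 lower. Without 1 library, 783 to 2395 were higher and 915 to 2203 lower. Of the fits without 1 library, the most calls were made without Early 3 and the fewest without Early 2, though each holds equally many libraries. The cause was not tested. Same-numbered Early and Reactivated libraries did not deviate together (correlations -0.04, -0.04 and -0.11), and pairing with Basal or Late was not tested. The block is given as a value only, and 8 named calls were lost with it.

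Among named genes, log2 fold changes reversed as follows. With the Rn45s share they were -0.55 for Grin2c, -0.0658 for Cacnb3, -0.20 for Cx3cr1, 0.17 for Homer1, -0.30 for Hdac9, -0.0167 for Rn45s and -0.0226 for Rbfox3. With the GC correction they were -0.00041 for Nlgn2, -0.0615 for Npas4, 0.31 for Homer1, 0.40 for Fmr1, -0.0279 for Wfs1, -0.0532 for Gad1, 0.18 for Dcx and -0.27 for Rbfox3. Library totals gave -0.21 for Npas4, -0.0854 for Nr4a1, -0.0945 for Hdac9, -0.11 for Bdnf and Wfs1, -0.0677 for Dlg4, -0.0669 for Snap25, -0.41 for Gad1 and -0.30 for Rbfox3. Values as deposited gave -0.0719 for Npas4, -0.22 for Gad1 and -0.18 for Rbfox3, and upper quartile scaling -0.10 for Gad1 and -0.0185 for Rbfox3. Gad1 was at -0.0139 with the filter at 50 and -0.0037 without structural RNAs. Without 1 library, Homer1 ranged from -0.11 to 0.10, Bdnf from -0.10 to 0.49, Prox1 from -0.96 to 0.12 and Gad1 from -0.21 to 0.27. Of the genes given here, Grin2c, Cacnb3, Cx3cr1, Rn45s and Nlgn2 had passed the test.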
